A study of Sus scrofa with 18 samples.

Results

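The let-7 family was described here in small RNA sequencing of pig skeletal muscle and of exosomes isolated from that muscle. Members were all rows of the miRNA table whose name begins with ssc-let-7, together with ssc-miR-98, which gave 11 of the 465 miRNAs listed. They were ssc-let-7a, ssc-let-7c, ssc-let-7d-3p, ssc-let-7d-5p, ssc-let-7e, ssc-let-7f-3p, ssc-let-7f-5p, ssc-let-7g, ssc-let-7i-3p, ssc-let-7i-5p and ssc-miR-98. The labels describe the animals as castrated sows of the Hechuan black pig, adult, and give no further genotype or agent. The 4 groups were HC-L exosomes, HC-L muscle tissue, HC-P exosomes (called Y-Exo in the labels) and HC-P muscle tissue, with 3 libraries in each. The series set oxidative against glycolytic muscle, but neither HC-L nor HC-P is tied to either type in the labels, and replicates are not stated to be separate pigs. The spread that the p-values measure is thus that between libraries and may be technical. Exosomes were prepared from homogenised muscle, so their source cell within the muscle is not resolved, and their RNA was extracted with Trizol LS, against Trizol for tissue. Reagent and sample kind therefore cannot be told apart.

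let-7 is among the earliest known miRNAs and was found in the worm Caenorhabditis elegans as a regulator of developmental timing. In mammals several genes encode near-identical mature let-7 forms that share a seed, the stretch of the miRNA that pairs with target transcripts, and miR-98 belongs to the same seed family. The mature let-7 strand lies on the 5p arm of its hairpin, whereas the 3p arm is mostly the discarded passenger strand and carries another seed. LIN28 proteins block let-7 maturation in embryonic cells, and let-7 is abundant in most differentiated tissues, where it restrains growth genes such as HMGA2, RAS genes and MYC. The 5p members differ from each other at few bases, and the authors' rule for reads that could come from several members is not known here. No pair among the 11 members had the same counts in every library, but values of close members are uncertain for this reason.

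The exosome libraries held between 106040 and 959599 miRNA reads, against 3964875 to 9016010 in the tissue libraries. Skeletal muscle miRNAs were present as labelled: all 7 of a list that includes miR-1, miR-133a-3p and miR-206 were detected, at 53.4% to 67.9% of reads in HC-L exosomes, 72.7% to 79% in HC-L tissue, 54.6% to 66.5% in HC-P exosomes and 50% to 81.2% in HC-P tissue. Among the tissue libraries, HC-P tissue replicate 1 stood apart, with 27.4% of its reads in miR-1 against 60.9% to 72.9% in the other 5. Results that rest on it are given with and without it where both were computed. Of the exosome libraries, HC-L exosome replicate 3 had the lowest miR-1 share, at 28.2%. The other HC-L exosome libraries had 50.7% and 56.7%, and HC-P exosomes had 35.8% to 48.3%. Levels are deposited TPM, which here is the count divided by all miRNA reads of the library, times 1000000, with no term for length; mature miRNAs are of nearly equal length.

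The family as a whole took a larger share of the miRNA reads in exosomes than in tissue. It held 3.60%, 3.44% and 5.996% of reads in the 3 HC-L exosome libraries, against 1.58%, 1.19% and 1.52% in HC-L tissue. In HC-P exosomes the share was 4.72%, 4.12% and 5.75%, against 2.71%, 1.25% and 1.23% in HC-P tissue. Every exosome library lay above every tissue library of the same muscle, and the highest tissue value belonged to HC-P tissue replicate 1. The means were 4.35% ± 1.43 in HC-L exosomes and 1.43% ± 0.213 in HC-L tissue, and 4.86% ± 0.829 in HC-P exosomes and 1.73% ± 0.850 in HC-P tissue (SD, n = 3 each). These are shares of a whole, so more let-7 and less of other miRNAs, miR-1 above all, cannot be told apart, nor can fewer cells of a type and less RNA per cell. With the 3 most abundant miRNAs left out of the total, the HC-L exosome mean was 13.8%, that of HC-L tissue 6.31%, and the mean was 15.3% in HC-P exosomes and 5.43% in HC-P tissue.

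ssc-let-7i-5p was the only member with an adjusted p under 0.05 in both muscles by edgeR with TMM scaling, and it was higher in exosomes. In TPM, ssc-let-7f-5p, ssc-let-7g and ssc-miR-98 also lay above tissue in both muscles, as given below. It stood at 7321, 6253 and 26761 TPM in HC-L exosomes, against 2082, 1416 and 2864 TPM in HC-L tissue. HC-P exosomes had 7135, 9053 and 15928 TPM, against 2514, 1347 and 1414 TPM in HC-P tissue. No exosome library fell to the level of a tissue library of its muscle, and HC-L exosome replicate 3 was far above the rest. That library also had the lowest miR-1 share of the exosome libraries, at 28.2%. edgeR's quasi-likelihood test with TMM scaling gave a log2 fold change of 1.41 ± 0.42 (SE), or 2.66-fold, in HC-L, with an adjusted p of 0.0376. The HC-P libraries gave 1.75 ± 0.42, or 3.36-fold, with an adjusted p of 0.0120. Adjustment was by Benjamini-Hochberg over the 252 miRNAs that passed the filter on low counts, and an adjusted p under 0.05 is named a call throughout. Scaled to library totals the log2 fold changes were 2.66 in HC-L and 2.61 in HC-P, with edgeR adjusted p-values of 0.0196 and 0.0149.

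The HC-L call was not stable to the choice of libraries. It was lost when any of the 3 HC-L exosome libraries, HC-L tissue replicate 1 or HC-L tissue replicate 2 was left out, with edgeR adjusted p-values between 0.0638 and 0.0791 and log2 fold changes between 1.39 and 1.62. The HC-P call held with each of the 12 libraries left out in turn.

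**Figure D1:**
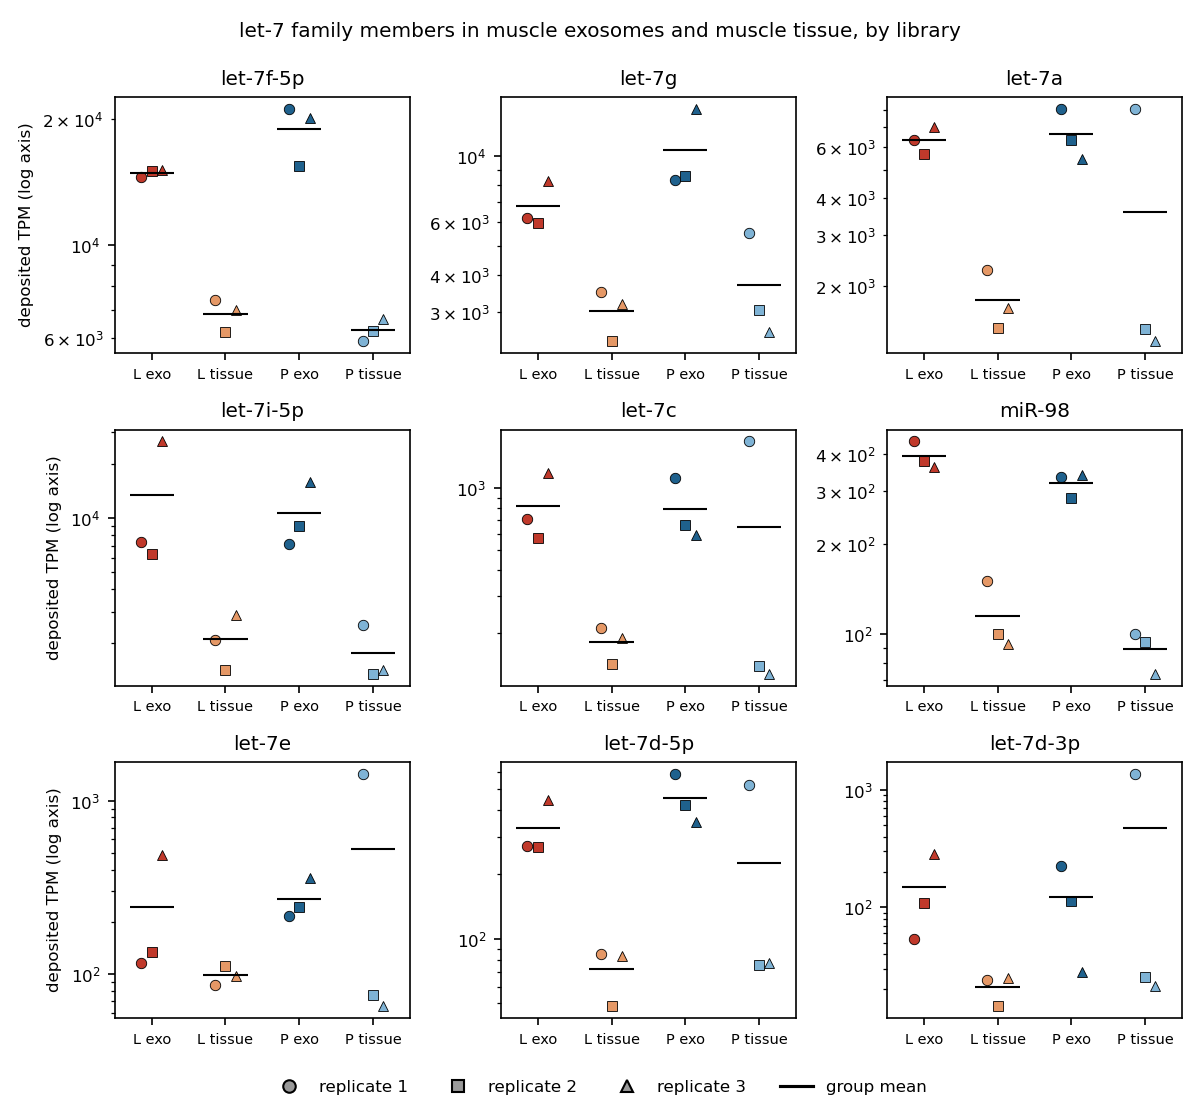
Deposited TPM (log axis) of 9 let-7 members in each of 12 libraries, with HC-L exosome, HC-L tissue, HC-P exosome and HC-P tissue from left to right; symbols mark replicate numbers and lines group means. ssc-let-7i-5p lies between 6253 and 26761 TPM in exosomes and between 1347 and 2864 TPM in tissue, while HC-P tissue replicate 1 lies far above the other tissue libraries for ssc-let-7a, ssc-let-7c, ssc-let-7e, ssc-let-7d-5p and ssc-let-7d-3p.

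ssc-let-7f-5p was the most abundant member in 10 of the 12 libraries. It had 14555, 15043 and 15118 TPM in HC-L exosomes, against 7406, 6210.4 and 7005 TPM in HC-L tissue. HC-P exosomes had 21164, 15433 and 20096 TPM, against 5904, 6244 and 6662 TPM in HC-P tissue. The groups were tight and did not overlap in either muscle. The TMM fold changes were nevertheless small, at 0.15 ± 0.46 in HC-L and 0.66 ± 0.46 in HC-P (log2, SE), and neither was called. By library totals the HC-L value was 1.12 and the HC-P value 1.59, the HC-P one being called (edgeR adjusted p = 0.00884), so the call depends on the scaling.

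ssc-let-7g had 6225, 5951 and 8269 TPM in HC-L exosomes, against 3522, 2401 and 3199.8 TPM in HC-L tissue, and 8322, 8589.7 and 14381 TPM in HC-P exosomes, against 5516, 3051 and 2574 TPM in HC-P tissue. Exosomes and tissue did not overlap in either muscle. The log2 fold change by TMM was 0.16 ± 0.32 in HC-L and 0.71 ± 0.33 in HC-P (SE), neither of them called. In HC-P it was called by library totals (1.49, edgeR adjusted p = 0.0392), by both other scalings and with DESeq2 (adjusted p = 0.0126).

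ssc-let-7a had 6340.3, 5672 and 7038 TPM in HC-L exosomes, against 2270.4, 1440.3 and 1679.5 TPM in HC-L tissue. In HC-P exosomes it had 8100.3, 6338 and 5469.6 TPM, against 8061, 1424 and 1292.5 TPM in HC-P tissue. The HC-L groups were separate, and the HC-P groups overlapped through tissue replicate 1 alone. Its log2 fold change by TMM was 0.85 ± 0.45 in HC-L and 0.60 ± 0.45 in HC-P (SE), with no call.

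Among the less abundant members, exosome levels of ssc-let-7c, ssc-let-7d-5p and ssc-miR-98 lay above tissue in HC-L, and those of ssc-miR-98 did so in HC-P. ssc-let-7c had 707, 574 and 1188 TPM in HC-L exosomes against 211, 141 and 188 TPM in HC-L tissue, and 1125, 665 and 594 TPM in HC-P exosomes against 1690.3, 137 and 126 TPM in HC-P tissue. ssc-let-7d-5p had 271, 269 and 443 TPM in HC-L exosomes against 85.3, 48.5 and 83.7 TPM in HC-L tissue, and 589, 422 and 349 TPM in HC-P exosomes against 523, 75.6 and 77.1 TPM in HC-P tissue. Both were higher in every HC-L exosome library than in any HC-L tissue library, and both overlapped in HC-P through tissue replicate 1 alone. ssc-miR-98 had 442, 379 and 363 TPM in HC-L exosomes against 151, 100.3 and 92.4 TPM in HC-L tissue, and 335, 285 and 339 TPM in HC-P exosomes against 100.1, 94.0 and 73.5 TPM in HC-P tissue. It was separate in both muscles, with a log2 fold change by TMM of 0.86 ± 0.47 for HC-L and 1.01 ± 0.48 for HC-P (SE), not called. By library totals it was called in HC-L (1.78, edgeR adjusted p = 0.0483) and HC-P (1.84, edgeR adjusted p = 0.0358), and DESeq2 called it in HC-P (adjusted p = 0.0315).

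ssc-let-7e and ssc-let-7d-3p varied most between libraries. ssc-let-7e had 116, 135 and 487 TPM in HC-L exosomes against 86.3, 112 and 98.2 TPM in HC-L tissue, and 217, 244 and 358 TPM in HC-P exosomes against 1429 TPM in replicate 1, 76.4 and 65.3 TPM in HC-P tissue. ssc-let-7d-3p, the other arm of the ssc-let-7d-5p hairpin, had 53.4, 109 and 283 TPM in HC-L exosomes against 24.1, 14.3 and 24.8 TPM in HC-L tissue. In HC-P it had 224, 113 and 28.3 TPM in exosomes against 1379, 25.5 and 21.5 TPM in tissue. Their HC-P log2 fold changes by TMM were -1.05 ± 0.71 for ssc-let-7e and -1.63 ± 1.07 for ssc-let-7d-3p (SE), and without HC-P tissue replicate 1 they turned to 0.78 and 1.57, none of these being called. ssc-let-7f-3p was near the limit of detection, at 0 to 14.5 TPM in exosomes and 1.51 to 4.61 TPM in tissue.

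Across the members, exosome values were mostly above tissue values. All 10 members that passed the filter had a positive log2 fold change in HC-L, and 8 had one in HC-P. Their TMM median was 0.86 in HC-L, and the HC-P median was 0.63. Over all 252 tested miRNAs the HC-L median was -0.40 and the HC-P median -0.70. By library totals the members had a median of 1.80 for HC-L and 1.18 for HC-P, and all tested miRNAs 0.72 for HC-L and 0.00286 for HC-P. The members and the whole table thus shifted together with the scaling.

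In each muscle 1 of 10 members was called, both times ssc-let-7i-5p and both times higher. In HC-L, 41 of 252 miRNAs were called, or 16.3%, and 16 of them, or 6.35%, were higher. In HC-P, 65 were called, or 25.8%, and 23 of them, or 9.13%, were higher. The split of the calls depended on the scaling: by library totals 19 of 22 HC-L calls and 31 of 36 HC-P calls were higher, with DESeq2's size factors in edgeR 17 of 25 and 29 of 51, and by totals without the 3 most abundant miRNAs 21 of 26 and 39 of 49. One call among 10 members is near these background shares and is no result about the family as a whole.

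In TPM, every HC-L exosome library lay above every HC-L tissue library for 10 of 10 tested members, against 29.8% of all tested miRNAs. Among these, ssc-let-7f-3p had only 3, 3 and 4 exosome reads, and ssc-let-7e was separate by 116 against 112 TPM. The untested ssc-let-7i-3p, at 0 reads in exosomes, lay below tissue in both muscles. After TMM scaling the HC-L exosome range lay above that of tissue for 5 members, namely ssc-let-7a, ssc-let-7c, ssc-let-7d-3p, ssc-let-7d-5p and ssc-let-7i-5p, against 13.9% of all. In HC-P the TPM ranges were separate for 4 members, namely ssc-let-7f-5p, ssc-let-7g, ssc-let-7i-5p and ssc-miR-98, against 18.7%, and after TMM scaling for 3 of them (without ssc-let-7f-5p), against 13.5%. For ssc-let-7a, ssc-let-7c, ssc-let-7d-3p, ssc-let-7d-5p and ssc-let-7e the HC-P TPM ranges overlapped through tissue replicate 1 alone. Apart from that library, ssc-let-7d-3p was separate by only 28.3 against 25.5 TPM. The share of all tested miRNAs without that library was not computed.

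**Figure D2:**
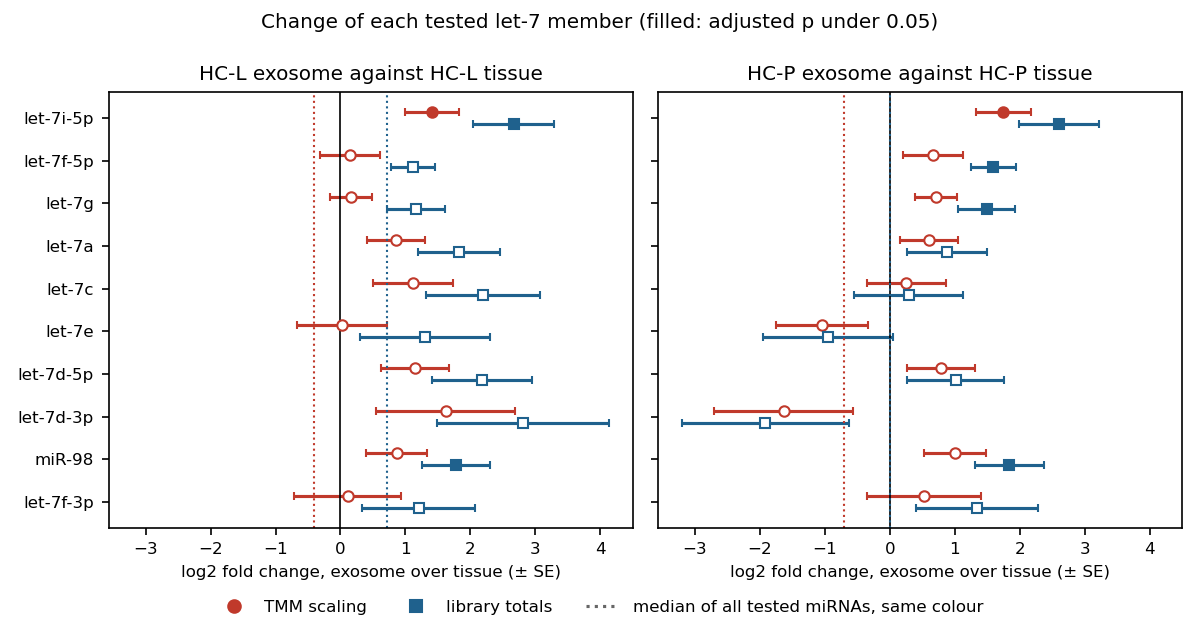
Log2 fold change of exosome over tissue (± SE, edgeR) for each of 10 tested let-7 members in HC-L (left) and HC-P (right), by TMM scaling (circles) and by library totals (squares); filled symbols have an adjusted p under 0.05 and dotted lines mark the median of all 252 tested miRNAs. ssc-let-7i-5p is filled in both muscles under both scalings, and ssc-let-7e and ssc-let-7d-3p lie below 0 in HC-P.

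Leaving out HC-P tissue replicate 1 raised the number of members called to 5 in HC-L and 4 in HC-P. Calls in the whole table rose too, from 41 to 81 in HC-L and from 65 to 83 in HC-P. The filter on low counts was run anew for this fit, so the share of tested miRNAs called is not given. Without that share, the member counts are no result about the family as a whole. The HC-L members were ssc-let-7a at 1.03, ssc-let-7c at 1.30, ssc-let-7d-3p at 1.80, ssc-let-7d-5p at 1.34 and ssc-let-7i-5p at 1.61 (log2 fold change). The HC-P members were ssc-let-7a at 1.25, ssc-let-7c at 1.60, ssc-let-7d-5p at 1.56 and ssc-let-7i-5p at 1.73. All were higher in exosomes. The HC-L values moved as well, since all libraries enter one scaling and one estimate of the spread.

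Within the family that library did not raise all members alike. Relative to the mean of the other 5 tissue libraries, ssc-let-7d-3p was 62.5 times as high, ssc-let-7e 16.3 times, ssc-let-7c 10.5 times, ssc-let-7d-5p 7.06 times and ssc-let-7a 4.97 times. ssc-let-7g was at 1.87 times, ssc-let-7i-5p at 1.38, ssc-miR-98 at 0.979 and ssc-let-7f-5p at 0.881. Over the 250 tested miRNAs with reads in the other tissue libraries the median ratio was 2.52, and 40.8% exceeded 4, a limit chosen after the values were seen, against 5 of 10 members. What set this library apart was not tested.

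The miRNAs encoded beside let-7 genes also differed among themselves in that library. In the RefSeq annotation of the pig assembly Sscrofa11.1, the let-7e gene lies within 50 kb of miR-125a and miR-99b, one let-7a gene within that distance of miR-125b-1 and miR-100, and let-7c beside miR-99a. ssc-miR-125a was 13.4 times as high in HC-P tissue replicate 1 as in the other tissue libraries, ssc-miR-99b 5.94 times, ssc-miR-125b 5.06 times, ssc-miR-99a-3p 7.54 times, ssc-miR-99a-5p 1.86 times and ssc-miR-100 1.76 times. ssc-let-7c, beside miR-99a, was at 10.5 times. The genes of let-7d, another let-7a and one let-7f form a further group, in which ssc-let-7a and ssc-let-7d were high in this library and ssc-let-7f-5p was not. Between exosomes and tissue of HC-P, ssc-miR-125b had a log2 fold change of -1.53 ± 0.49 (SE, edgeR adjusted p = 0.0385). That call was lost without HC-P tissue replicate 1 (-0.90, edgeR adjusted p = 0.0966), under each other scaling and with DESeq2 (adjusted p = 0.0515). ssc-miR-99a-5p had 0.59 ± 0.36 in HC-L and 0.99 ± 0.36 in HC-P, not called.

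**Figure D3:**
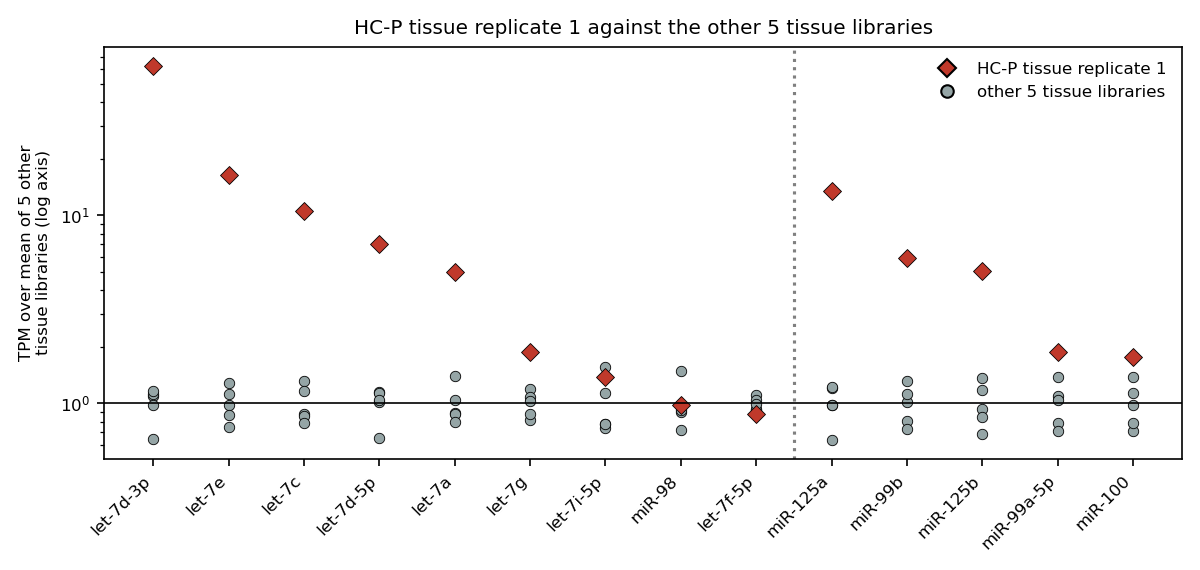
TPM of 9 let-7 members (left of the dotted line) and 5 miRNAs encoded beside let-7 genes (right) in each tissue library, divided by the mean of the 5 tissue libraries other than HC-P tissue replicate 1 (log axis). The diamond for HC-P tissue replicate 1 ranges from 0.881 for ssc-let-7f-5p to 62.5 for ssc-let-7d-3p, and the circles are the other 5 libraries.

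Composition needs no scaling between libraries. ssc-let-7i-5p made up 27.7% ± 14.7 of family reads in the exosomes of HC-L and 14.6% ± 3.67 in its tissue, and 21.6% ± 6.29 in HC-P exosomes and 10.5% ± 1.13 in HC-P tissue (SD, n = 3 each). ssc-let-7f-5p made up 36.4% ± 9.88 in HC-L exosomes and 48.3% ± 3.43 in HC-L tissue, and 39.1% ± 5.14 in HC-P exosomes and 42.0% ± 17.6 in HC-P tissue. Per 100 reads of the other members there were 25.5, 22.2 and 80.6 ssc-let-7i-5p reads in HC-L exosomes, against 15.1, 13.5 and 23.1 in HC-L tissue. In HC-P exosomes there were 17.8, 28.2 and 38.3, against 10.2, 12.1 and 13.0 in HC-P tissue. The HC-P groups were separate, and the HC-L groups overlapped, since exosome replicate 2 lay below tissue replicate 3.

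In 2 libraries the order of members was different. In HC-L exosome replicate 3 ssc-let-7i-5p took 44.6% of family reads and ssc-let-7f-5p 25.2%. In HC-P tissue replicate 1 ssc-let-7a led with 29.7%, and ssc-let-7f-5p had 21.8%. The remaining members, ssc-let-7c, ssc-let-7d-3p, ssc-let-7d-5p, ssc-let-7e and ssc-miR-98, each averaged under 3% of family reads in every group.

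**Figure D4:**
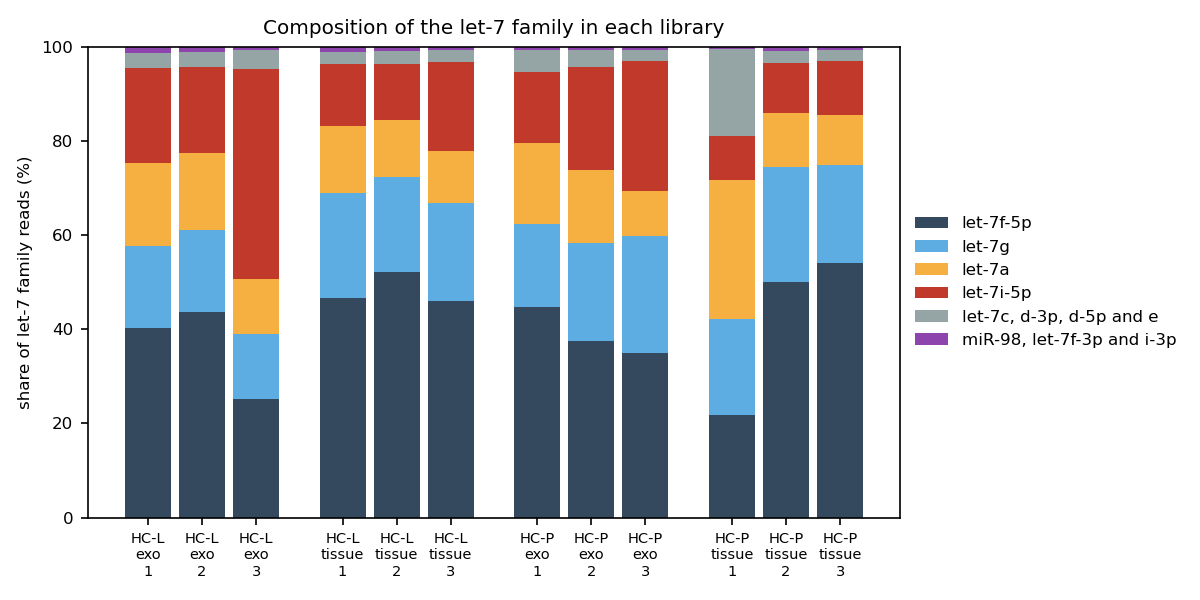
Share of let-7 family reads (%) held by each member or set of members in each of the 12 libraries. ssc-let-7i-5p ranges from 15.1% to 44.6% in exosomes and from 9.27% to 18.8% in tissue, and HC-P tissue replicate 1 has the largest part taken by ssc-let-7c, ssc-let-7d-3p, ssc-let-7d-5p and ssc-let-7e.

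The passenger strand of let-7i was not read in any exosome library. ssc-let-7i-3p had 0 reads in all 6 exosome libraries, beside 26316 reads of ssc-let-7i-5p, which by a floor of 3 reads allows a share of up to 0.0114% of the hairpin's reads (95% exact Clopper-Pearson upper limit 0.0140%). Tissue had 143 reads of ssc-let-7i-3p beside 76108 of ssc-let-7i-5p, or 0.188% (95% exact Clopper-Pearson interval 0.158% to 0.221%). Without HC-P tissue replicate 1 the tissue share was 0.168% (95% exact Clopper-Pearson interval 0.138% to 0.202%). All 6 tissue libraries had ssc-let-7i-3p reads, at 0.0798% to 0.320% of the hairpin's reads. Single exosome libraries were too shallow to separate the groups in HC-P, where the floor allowed up to 0.197% in replicate 2 and 0.178% in replicate 3, and 0.0407% to 0.0760% in the HC-L exosome libraries. With 3 reads as the floor over a group, ssc-let-7i-3p was at least 8.93-fold lower relative to ssc-let-7i-5p in HC-L exosomes than in HC-L tissue, and at least 7.61-fold lower in HC-P exosomes than in HC-P tissue. Relative to all miRNA reads, the shallow exosome libraries set a bound of only 1.79-fold lower in HC-L and 1.53-fold lower in HC-P. Pooled tissue values enter all these bounds without their own error, and they lean on single libraries. HC-P tissue replicate 1 held 32 of the 64 ssc-let-7i-3p reads in HC-P tissue, and HC-L tissue replicate 3 held 46 of 79 in HC-L tissue. HC-P tissue replicate 2, at 1.08 TPM, lay below the HC-P exosome floor of 2.43 TPM. Bounds without these libraries were not computed. Intervals and floors cover counting error only.

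The log2 arm ratio (3p over 5p), with 0.5 reads added to each arm, differed between exosomes and tissue for let-7i by a two-sided exact permutation test within muscles (p = 0.005, the smallest the 400 arrangements allow, adjusted p = 0.0182 over 51 hairpins). With the replicate number as a block the call was lost (adjusted exact sign-flip p = 0.0839). The sign-flip test has fewer arrangements, and let-7i was already at the smallest p it allows, with every same-numbered exosome library below its tissue library. The lost call therefore cannot tell a weaker difference from the coarser steps of that test. Since all exosome counts are 0, the exosome ratios are set by the added reads and the depth of the 5p arm, and the size of the difference is no measurement. The permutation p and the call rest in part on the added reads too. In HC-P exosome replicates 2 and 3 the floors of 0.197% and 0.178% lie within the tissue range. Of those 51 hairpins, 21, or 41.2%, were called by the permutation test, so such a difference was common in the table. The let-7d ratio was 0.60 lower on the log2 scale and the let-7f ratio 0.14 higher in exosomes than in tissue, with adjusted exact permutation p-values of 0.597 and 0.861, not called. Without HC-P tissue replicate 1 the let-7d difference was -0.087. The let-7f ratio rested on 19 reads of ssc-let-7f-3p in exosomes and 122 in tissue. ssc-let-7d-3p made up 16.4%, 28.9% and 39% of let-7d reads in HC-L exosomes and 27.6%, 21.1% and 7.5% in HC-P exosomes. The tissue value was 72.5% in HC-P tissue replicate 1 and 21.8% to 25.2% in the other 5 tissue libraries.

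**Figure D5:**
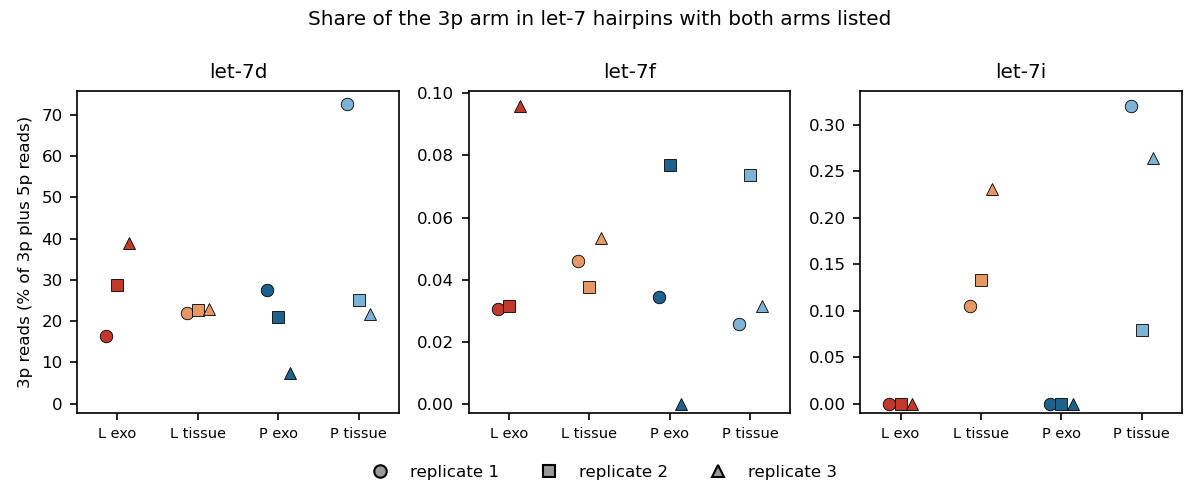
Reads of the 3p arm as a percentage of 3p plus 5p reads for let-7d, let-7f and let-7i in each of 12 libraries, each panel with its own linear axis and symbols marking replicate numbers. let-7i is at 0 in all 6 exosome libraries and between 0.0798% and 0.320% in the tissue libraries, and let-7d reaches 72.5% in HC-P tissue replicate 1.

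Between the muscles no member was called. In HC-L against HC-P exosomes the members' log2 fold changes by TMM ran from -0.40 for ssc-let-7d-5p to 0.55 for ssc-miR-98, and ssc-let-7i-5p stood at 0.39 ± 0.41 (SE). edgeR called 0 of 252 miRNAs in this comparison (0%), with 8 at an unadjusted p under 0.05, and DESeq2 called 2, neither of them a member. In HC-L against HC-P tissue the values ran from -3.23 ± 1.13 for ssc-let-7d-3p to 0.72 ± 0.41 for ssc-let-7i-5p (SE). Here too 0 were called by edgeR (0%), with 28 at an unadjusted p under 0.05, and DESeq2 called 0. ssc-let-7d-3p had an edgeR adjusted p of 0.370, and its value was -0.36 without HC-P tissue replicate 1.

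The exosome-tissue difference was also compared between the muscles. ssc-let-7i-5p differed by -0.34 ± 0.58 (log2, HC-L minus HC-P, SE; edgeR adjusted p = 0.971). ssc-let-7d-3p had the largest difference of the members, at 3.26 ± 1.52, with an edgeR adjusted p of 0.956, and its value was 0.24 without HC-P tissue replicate 1. ssc-let-7e, at 1.07 with all libraries, was at -0.62 without it. Of all 252 miRNAs edgeR called 0 (0%), with 8 at an unadjusted p under 0.05, and DESeq2 called 0.

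Some miRNAs outside the family had a profile like it. Over the 12 libraries, on centred log2 TMM-scaled CPM, the smallest root mean square differences to the summed family were those of ssc-miR-99a-5p at 0.263, ssc-miR-22-5p at 0.307, ssc-miR-26a at 0.346, ssc-miR-1271-5p at 0.371 and ssc-miR-130b-5p at 0.43. For ssc-let-7i-5p they were those of ssc-miR-183 at 0.532, ssc-miR-99a-5p at 0.549, ssc-miR-145-3p at 0.588, ssc-miR-96-5p at 0.618 and ssc-miR-22-5p at 0.668. Since ssc-miR-183 and ssc-miR-96-5p are on the list of epithelial miRNAs, its summed level is given: 7 of 9 were listed, and they held 0.0087% to 0.016% of reads in HC-L exosomes, 0.0008% to 0.0014% in HC-L tissue, 0.0066% to 0.0453% in HC-P exosomes and 0.0007% to 0.0013% in HC-P tissue. The endothelial list (4 of 4 listed) held 0.871% to 2.85% in HC-L exosomes, 0.486% to 1.01% in HC-L tissue, 1.03% to 2.17% in HC-P exosomes and 0.598% to 1.06% in HC-P tissue. The immune list (7 of 7) held 0.0408% to 0.166% in HC-L exosomes, 0.01% to 0.0297% in HC-L tissue, 0.0429% to 0.277% in HC-P exosomes and 0.0182% to 0.0947% in HC-P tissue. The epithelial ranges lay above those of tissue in both muscles and the immune range in HC-L, while the endothelial ranges and the HC-P immune ranges overlapped. The red cell, smooth muscle, fibroblast and neural ranges overlapped in both muscles. Smooth muscle miRNAs held 0.819% to 3.58% in HC-L exosomes and 2.5% to 4.2% in HC-L tissue. Fibroblast and mesenchymal miRNAs held 0.961% to 1.69% in HC-L exosomes and 1.53% to 2.29% in HC-L tissue. The skeletal muscle range in HC-L exosomes lay below that of tissue. The part of these lists in the let-7 values was not tested.

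The authors' deposited table of HC-L exosome against tissue lists 8 let-7 rows, of which 6 have an adjusted p under 0.05, all of them higher in exosomes. Of all 124 rows listed there 88 have an adjusted p under 0.05, so the let-7 count is near the share of the whole table. Its log2 fold changes are 1.80 for ssc-let-7i-5p, 2.02 for ssc-let-7d-3p, 1.55 for ssc-let-7d-5p, 1.504 for ssc-let-7c, 1.24 for ssc-let-7a and 1.25 for ssc-miR-98, in the authors' deposited table. ssc-let-7g is at 0.55 with an adjusted p of 0.115 in the authors' deposited table. ssc-let-7i-3p is listed there at -3.85 with an adjusted p of 0.0627 and a normalised signal of 0 in exosomes. For HC-P exosomes against tissue the authors' deposited table lists 2 let-7 rows, ssc-let-7i-5p at 2.03 (adjusted p = 0.00240) and ssc-miR-98 at 1.30 (adjusted p = 0.177). Of all 80 rows listed there 34 have an adjusted p under 0.05. The authors' deposited tables for HC-L against HC-P exosomes and HC-L against HC-P tissue list 0 let-7 rows.

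Genes of the let-7 pathway were looked up among the mRNAs that the study listed as different between HC-L and HC-P muscle. The authors' deposited table holds 522 genes, 356 higher and 166 lower in HC-L, all with an adjusted p under 0.05, so a gene outside it has no value here, and the share of all measured genes that entered it is not known. Genes were looked up by symbol, and 429 of the 522 had one, so a listed gene without a symbol would be missed. None of 20 genes of let-7 maturation and control, such as LIN28B, DICER1 and DIS3L2, was found in it. Of 45 genes known as let-7 targets in mammals 2 are listed, both higher in HC-L. MYC, a transcription factor of growth genes, has a log2 fold change of 2.30 (adjusted p = 6.51e-05) in the authors' deposited table. THBS1, the matrix protein thrombospondin 1, has 3.11 (adjusted p = 2.78e-06) in the authors' deposited table. Among the 320 genes beside which that table names a related miRNA, 1 names a family member: YOD1, a deubiquitinase, is set beside ssc-let-7c, with a normalised signal of 907 for HC-L and 69.0 for HC-P and a log2 fold change of 3.72 (adjusted p = 1.83e-09) in the authors' deposited table.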

How the data were processed

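The authors deposited a read count and a TPM per mature miRNA for 12 small RNA libraries. The deposited TPM equals the count divided by the library's total, times 1000000, to within 4.31e-05. Libraries were TruSeq Small RNA, per the labels' protocols; aligner, build and counting rule: not given in the sources used here. Further, the authors' tables of changed miRNAs and mRNAs hold a normalised signal per group, a log2 fold change and a p-value, as deposited; their tests are not given. Of the mRNA columns, 6 of single libraries were not used.

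Members and gene lists were chosen with earlier results of these data known. Counts were fitted with edgeR 4.0.16 (R 4.3.3; filterByExpr, TMM, quasi-likelihood test, 4 groups of 3 libraries in one fit, common dispersion 0.346), and 252 of 465 miRNAs were tested, including 10 of 11 members; ssc-let-7i-3p failed the filter. Calls need a Benjamini-Hochberg adjusted p under 0.05 over all tested miRNAs. The fit was also run on simulated counts, with planted rises and falls in equal number and a single spread for all miRNAs. That run does not address the choice of scaling. DESeq2 1.42.0, other scalings, no filter, a replicate block and leaving out each library were alternatives. Arm ratios used hairpins with at least 100 reads of each arm and an exact permutation test (Python 3.11.15, numpy 2.4.6). All rows named let-7 or miR-98 were reported; similar miRNAs were the 5 nearest by root mean square difference on log2 CPM with a prior count of 2. No libraries had identical counts. Replicate numbers in the titles were checked for pairing: deviations from group means of same-numbered HC-L exosome and tissue libraries correlated at 0.392, 0.371 and 0.527, those of HC-P at 0.111, 0.036 and 0.14. The exosome libraries of the muscles correlated at 0.342, 0.211 and 0.295 and the tissue libraries at 0.168, 0.128 and 0.23. Every pair was above 0.1 in 3 of these 4 comparisons, HC-P exosome against tissue being the exception.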

Additional observations from a re-analysis of the deposited data

How the results depend on the processing

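Calls of ssc-let-7i-5p in both muscles held under every scaling, tool and filter tried; the HC-L call was lost in 5 of the 12 fits that left out a library. Members called in HC-L, against 1, were 2 by library totals, 3 by totals without the 3 most abundant miRNAs, 2 with DESeq2 and 3 with no filter. The 3 with no filter were ssc-let-7i-5p and ssc-let-7d-3p, higher in exosomes, and ssc-let-7i-3p, which had 0 exosome reads and was thus lower. In HC-P, against 1, members called were 2 with DESeq2's size factors in edgeR, 4 by library totals, 5 by totals without the 3 most abundant miRNAs and 3 with DESeq2. Of all miRNAs, against 41 in HC-L (16.3% of those tested), 25 were called with DESeq2's size factors in edgeR and 22 by library totals. Totals without the 3 most abundant miRNAs gave 26 HC-L calls, DESeq2 46 and no filter 54. Against 65 in HC-P (25.8% of those tested), 51 were called with DESeq2's size factors in edgeR and 36 by library totals. Totals without the 3 most abundant miRNAs gave 49 HC-P calls, DESeq2 65 and no filter 83. In HC-P, members called thus rose under these scalings and DESeq2 while calls of all miRNAs did not. With no filter, 1 miRNA was called between HC-L and HC-P exosomes (2 with DESeq2), 28 between the tissues and 5 for the difference of differences, ssc-let-7d-3p being the 1 member called in either of these last comparisons. Leaving out 1 library at a time, 0 to 5 members and 10 to 81 miRNAs were called in HC-L, and 1 to 4 members and 31 to 83 miRNAs in HC-P; the 5 fits that lost the ssc-let-7i-5p call had 0 members called in HC-L, 2 were called in HC-L without HC-P exosome replicate 1 and 2 in HC-P without HC-L tissue replicate 1 or 3, and the highest counts came without HC-P tissue replicate 1. HC-L calls of all miRNAs fell to between 10 and 26 without any library other than HC-P tissue replicate 1 and HC-P exosome replicate 1 (50), and HC-P calls to between 31 and 43 without any HC-L tissue library, HC-P exosome library or HC-P tissue replicate 2 or 3. The family's share without the 3 most abundant miRNAs was 13.8% in HC-L exosomes, 6.31% in HC-L tissue, 15.3% in HC-P exosomes and 5.43% in HC-P tissue. The cause of these shifts was not tested.

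The replicate block left 1 member called in each muscle; ssc-let-7i-5p had log2 fold changes of 1.38 (edgeR adjusted p = 0.0141) in HC-L and 1.79 (edgeR adjusted p = 0.00335) in HC-P. The let-7i arm ratio lost its call with the replicate block (adjusted exact sign-flip p = 0.0839), although its unadjusted p was the smallest that the sign-flip test allows. The size of this let-7i difference is set by the reads added to counts of 0 and is neither a measurement nor a bound. It was -3.67 with 0.5 reads added, with and without the block, and -1.79 with 2 reads added (adjusted exact permutation p = 0.0383). The calls rest in part on the added reads too. With at least 1000 reads of each arm, let-7d alone had a value. With libraries left out the let-7f arm ratio ran from -0.15 to 0.36 and that of let-7d from -0.90 to -0.087, the value without HC-P tissue replicate 1. The alternatives for ssc-miR-125b were chosen after seeing the data; its HC-P value stayed negative in all of them, from -1.98 to -0.81.

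Signs of uncalled members turned as follows (log2). In HC-L exosome against HC-P exosome, ssc-let-7a was -0.024 with DESeq2's size factors, -0.064 by library totals, -0.048 by totals without the 3 most abundant miRNAs and -0.024 with DESeq2; ssc-let-7c was -0.060, -0.025, -0.060 and -0.023 with DESeq2's size factors, totals without the 3 most abundant miRNAs, DESeq2 and no filter; ssc-let-7d-3p was -0.10, -0.075 and -0.10 with DESeq2's size factors, DESeq2 and no filter; ssc-let-7f-3p was 0.052 by library totals. In HC-L tissue against HC-P tissue ssc-let-7g was -0.29 by library totals and -0.19 with no filter. For the difference of differences, ssc-let-7i-5p was 0.059 by library totals and ssc-miR-98 0.21 with no filter.

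With libraries left out one at a time, the values that crossed 0 were these. In HC-L exosome against tissue, ssc-let-7f-5p ran from -0.12 to 0.83, ssc-let-7g from -0.013 to 0.74 and ssc-let-7e from -0.045 to 0.62. In HC-P exosome against tissue, ssc-let-7c ran from -0.41 to 1.60, ssc-let-7e from -1.35 to 0.78 and ssc-let-7d-3p from -2.74 to 1.57. Between HC-L and HC-P exosomes, ssc-let-7f-5p ran from -0.35 to 0.27, ssc-let-7a from -0.27 to 0.53, ssc-let-7i-5p from -0.12 to 0.63, ssc-let-7c from -0.35 to 0.72, ssc-let-7e from -0.62 to 0.14, ssc-let-7d-5p from -0.80 to 0.12, ssc-let-7d-3p from -0.57 to 1.13 and ssc-let-7f-3p from -0.51 to 0.34. Between HC-L and HC-P tissue, ssc-let-7f-5p ran from -0.064 to 0.74, ssc-let-7g from -0.22 to 0.26, ssc-let-7a from -0.64 to 0.23, ssc-let-7c from -1.47 to 0.27, ssc-let-7e from -1.93 to 0.38 and ssc-let-7f-3p from -0.25 to 0.98. For the difference of differences, ssc-let-7f-5p ran from -0.92 to 0.084, ssc-let-7a from -0.23 to 0.79, ssc-let-7i-5p from -0.56 to 0.042, ssc-let-7c from -0.31 to 1.46, ssc-miR-98 from -0.37 to 0.50, ssc-let-7e from -0.62 to 1.67, ssc-let-7d-5p from -0.22 to 0.82 and ssc-let-7f-3p from -1.09 to 0.11. The shallow exosome libraries limit what can be said of the 3p arms.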
